A study of Mus musculus with 6 samples.

Results

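The p38 mitogen-activated protein kinases and their core pathway were described by the mRNA of 10 genes chosen by name, all 10 of which were among the 35602 genes of the count table and the 34714 genes listed for the replicate 1 pair. They comprise the kinases *Mapk11*, *Mapk12*, *Mapk13* and *Mapk14*, the upstream kinases *Map2k3* and *Map2k6*, the downstream kinases *Mapkapk2* and *Mapkapk3*, and the phosphatases *Dusp1* and *Dusp10*. In mouse splenic CD4+ T cells stimulated through CD3 and CD28, the study compared a MAPK13 inhibitor, MAPK13-IN-1, with its solvent DMSO. The kinase it is named for is encoded by *Mapk13*. The aim stated in the paper was to learn how these cells keep stem cell-like properties. RNA was sequenced in 6 libraries, 3 per group, from cells with no transgene named in the labels, whose strain and age the labels also leave out. The dose was 17.1 µM and the culture lasted 72 h by the series design, whereas the labels of replicates 2 and 3 have the agent, inhibitor or DMSO, added after day 1 of stimulation. For the replicate 1 pair the labels name the treatments without a dose.

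The libraries were made in 2 ways. Poly-T bead purification was used for replicates 2 and 3 of both groups, and a kit that keeps strand information for the replicate 1 pair. Counts were deposited for replicates 2 and 3, and added up to 26874805 and 28487403 for DMSO and to 33854760 and 32617702 for MAPK13-IN-1. The replicate 1 pair was deposited as non-integer values taken to be FPKM, fragments per length of gene and size of library, because no unit is named. These sum to 405150 in DMSO and 390729 with the inhibitor, and their depth is unknown. All tests therefore rest on 2 count libraries against 2, and the replicate 1 pair, with 1 library per group, is given as values and as log2 ratios of FPKM + 1, a scale that understates the change of genes with low values. Count levels are given as CPM (counts relative to the TMM-scaled library total) and, where genes are compared with each other, as RPKM (CPM per kilobase of exon). The labels do not say that replicates came from separate cultures, so p-values measure only the spread between these libraries, which may be technical.

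Markers were examined before the pathway, because the libraries differed in them. The 10 CD4+ T cell markers summed to 538 and 547 RPKM in the DMSO libraries and to 319 and 354 RPKM in the MAPK13-IN-1 libraries of the count table. The 12 B cell markers summed to 1182 and 1145 RPKM in DMSO and to 1623 and 1561 RPKM with MAPK13-IN-1. Per length, B cell marker RNA thus exceeded T cell marker RNA in all 4 count libraries, at 209% to 220% of it in DMSO and 441% to 509% with the inhibitor, which goes against a label of CD4+ T cells alone. The methods name a BioLegend isolation kit for mouse CD4 T cells, a step meant to remove B cells and myeloid cells. In the replicate 1 pair the B cell sum was 18.1% of the T cell sum in DMSO and 20.8% with the inhibitor.

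The most abundant B cell marker was *Cd74*, the invariant chain that other antigen-presenting cells and some activated cells also express. Without it, the remaining 11 B cell markers summed to 449 and 445 RPKM in DMSO and 479 and 481 RPKM with MAPK13-IN-1, so that most of the difference in the B cell sum lay in *Cd74*. Relative to the T cell sum, which was itself lower with the inhibitor, these 11 stood at 83.4% and 81.3% in DMSO, at 150% and 136% with MAPK13-IN-1, and at 4.26% and 3.08% in the replicate 1 pair. Without *Cd74*, the B cell sum thus exceeded the T cell sum in the MAPK13-IN-1 count libraries only. In the count libraries, 8 of the 12 B cell markers rose and 3 fell, and 7 of the 10 T cell markers fell while 1 rose. These calls are at an adjusted p under 0.05, where 31.5% of all genes tested rose and 32.3% fell. *Cd4* itself, named after its values were seen, was at 275 ± 0.672 CPM in DMSO and 275 ± 11.4 CPM with the inhibitor (SD, n = 2).

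Markers of other cells were lower in summed CPM. Their calls, too, are to be read against the 31.5% of all genes tested that rose and the 32.3% that fell. By library totals, the 11 macrophage markers summed to 12.1 and 11.1 CPM in DMSO and 43.9 and 35.5 CPM with MAPK13-IN-1, with *Cd68* the most abundant and 6 of 8 tested genes risen. The 8 erythroid markers summed to 7.52 and 7.09 CPM in DMSO and 94.2 and 66.8 CPM with the inhibitor, with *Hbb-bs* the most abundant and 5 of 6 tested genes risen. The 2 CD8 T cell markers, of which *Cd8b1* was the more abundant, summed to 11.2 and 10.4 CPM in DMSO and 5.76 and 8.16 CPM with the inhibitor, and both fell. The 5 NK cell markers stayed between 1.38 and 2.18 CPM, led by *Eomes* and with *Klra8* at 0 in all 4 count libraries, and the 9 neutrophil markers stayed between 0.421 and 1.29 CPM, with *Mpo* the most abundant over the 4 libraries, at 2 counts in each DMSO library and 17 and 16 counts with the inhibitor, and *S100a9* at 0. For DMSO and MAPK13-IN-1 in the replicate 1 pair, the macrophage sums were 3.05 and 9.96 FPKM, the erythroid sums 0.928 and 1.93 FPKM, the CD8 T cell sums 3.49 and 8.39 FPKM, the NK cell sums 0.644 and 4.40 FPKM, and the neutrophil sums 0.763 and 0.468 FPKM. The contribution of these cell types to the differences below was not tested, and in bulk RNA fewer cells of a type and less RNA per cell cannot be told apart.

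p38 kinases are activated by stress and by inflammatory signals, when the dual-specificity kinases MKK3 and MKK6, encoded by *Map2k3* and *Map2k6*, phosphorylate a threonine and a tyrosine in their activation loop. Active p38α and p38β, encoded by *Mapk14* and *Mapk11*, phosphorylate MK2 and MK3, encoded by *Mapkapk2* and *Mapkapk3*. MK2 in turn acts on RNA-binding proteins such as tristetraprolin that control the decay of cytokine mRNAs. DUSP1 and DUSP10 remove the activating phosphates, and in T cells p38 can also be switched on beside the T cell receptor by a route that does not use the MAP2K tier.

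Of the 10 genes, 9 passed an adjusted p under 0.05 in edgeR's quasi-likelihood test, against a background of 63.8% of all 16269 genes tested. The count of 9 has to be read against that high background and is not in itself a result about the pathway. *Map2k6*, *Map2k3*, *Mapk14* and *Dusp10* rose (31.5% of all genes tested did), and *Mapk13*, *Mapk11*, *Mapkapk2*, *Dusp1* and *Mapkapk3* fell (32.3% of all genes tested did). The CPM of the MAPK13-IN-1 and DMSO libraries did not overlap for the same 9 genes, as for 83.0% of all genes tested, and overlapped for *Mapk12*. An adjusted p under 0.05 together with an absolute log2 fold change over 1 was reached by 4 of the 10 genes, against 23.4% of all genes tested. The replicate 1 pair moved in the direction of the call for 3 of the 9 called genes, *Mapk11*, *Map2k3* and *Dusp10*, and in the other direction for 6. Of all called genes 65.9% moved in the direction of the call, and 64.9% of those with at least 1 FPKM in a library of the pair. An absolute log2 ratio over 1 was reached in the pair by *Mapk13* and *Dusp1*, 2 of the 10 genes, against 9.03% of the genes with at least 1 FPKM. With a pseudocount of 0.1 in place of 1 *Mapk13* went to 3.54, and *Map2k6* (−1.14) and *Mapk12* (−1.004) also passed 1 in size, so that 4 of the 10 genes did, against 14.2% of the genes with at least 1 FPKM. In the pair 6 of the 10 genes had a log2 ratio above 0, against 56.5%.

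**Figure D1:**
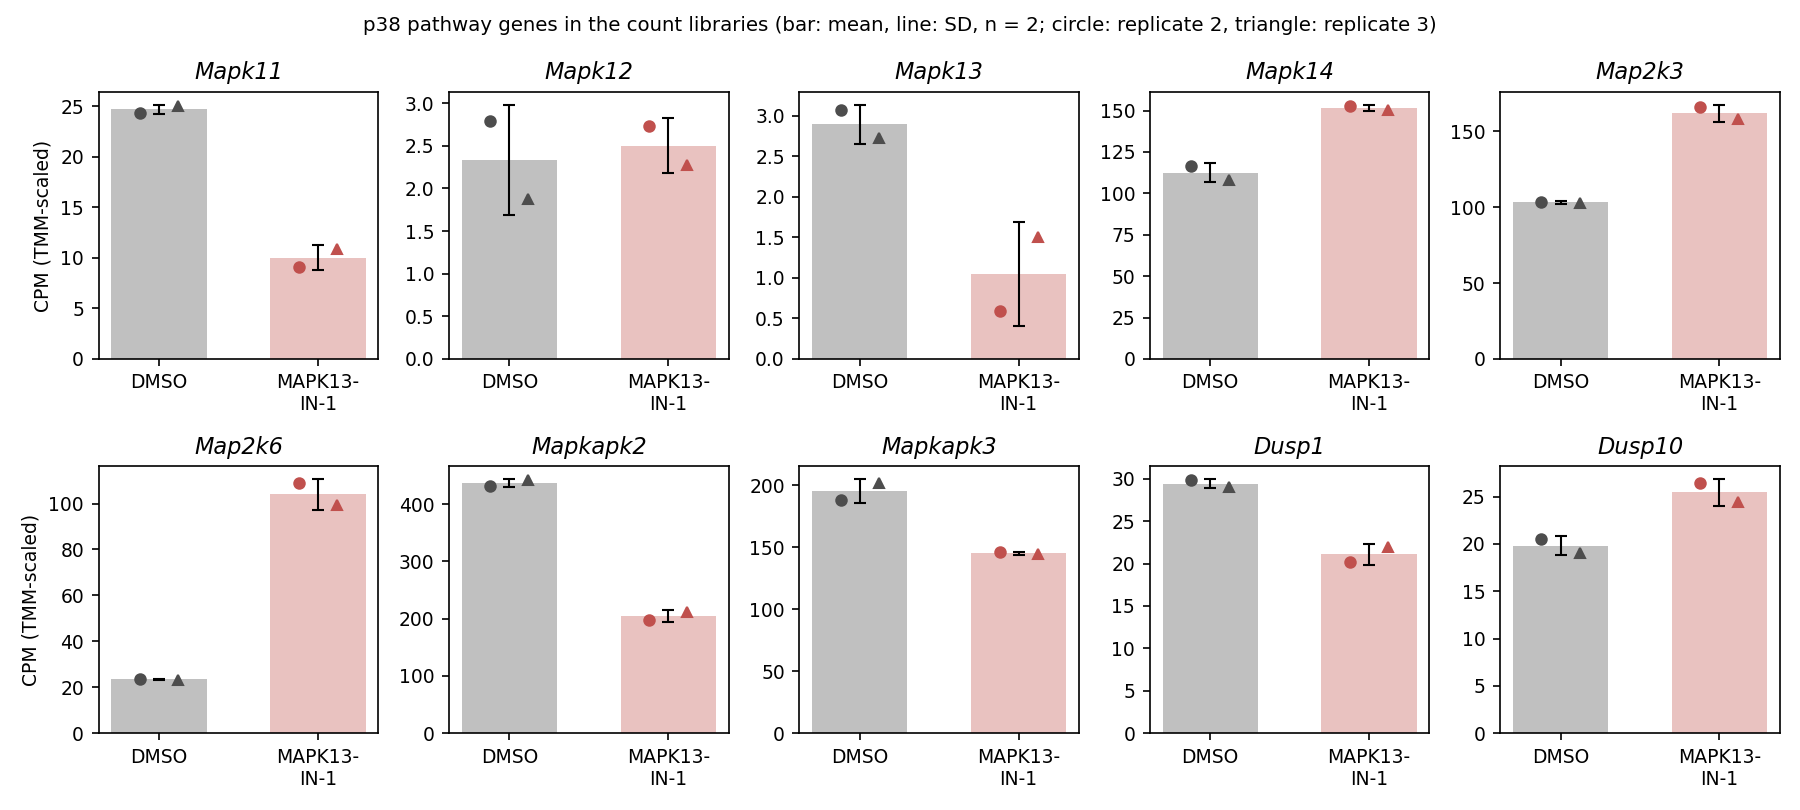
TMM-scaled CPM (vertical axes, each from 0) of the 10 genes in DMSO and MAPK13-IN-1 libraries of replicates 2 and 3. Bars are means, lines are SD (n = 2) and points are libraries, which overlap between the groups for *Mapk12* alone among the 10 genes. The largest fold difference is that of *Map2k6*, from 23.4 to 104 CPM.

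Among the kinases, *Mapk14*, which encodes p38α, the form found in nearly all cells, was the most abundant. Its counts were 3001 and 2944 in DMSO and 5430 and 5097 with MAPK13-IN-1. Scaled, these were 116 and 108 CPM against 153 and 150 CPM, so that both inhibitor libraries lay above both DMSO libraries. The mean rose from 112 ± 5.75 to 152 ± 1.82 CPM (SD, n = 2), a log2 fold change of 0.43 ± 0.06 (SE, adjusted p = 0.00013, edgeR). *Mapk14* in the replicate 1 pair stood at 24.8 FPKM in DMSO and 19.7 FPKM with the inhibitor, a log2 ratio of −0.31.

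*Mapk11*, which encodes p38β, had 628 and 680 counts in DMSO and 324 and 368 counts with MAPK13-IN-1. Both inhibitor libraries were low, at 9.13 and 10.9 CPM against 24.4 and 25.0 CPM. *Mapk11* fell 2.47-fold, a log2 fold change of −1.30 ± 0.12 (SE, adjusted p = 4.71e-06, edgeR). Less of it was also present with the inhibitor in the replicate 1 pair, 9.52 against 12.5 FPKM, a log2 ratio of −0.36.

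*Mapk13*, which encodes p38δ, the named target of the inhibitor, was scarce in the 4 count libraries. It had 79 and 74 counts in DMSO and 21 and 51 counts with MAPK13-IN-1, or 3.06 and 2.72 CPM against 0.592 and 1.51 CPM. Both inhibitor libraries lay below both DMSO libraries, but they differed from each other more than the DMSO libraries did. The log2 fold change was −1.47 ± 0.36 (SE, adjusted p = 0.0049, edgeR), and it depended on which inhibitor library was used, with −0.94 without MAPK13-IN-1 replicate 2 and −2.29 without MAPK13-IN-1 replicate 3. *Mapk13* went the other way in the replicate 1 pair, from 0.191 FPKM in DMSO to 3.28 FPKM with the inhibitor, a log2 ratio of 1.84. The mRNA of the target was therefore lower with the inhibitor in one batch of libraries and higher in the other, and the difference between the batches was not tested.

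*Mapk12*, which encodes p38γ and is best known from skeletal muscle, had 72 and 51 counts in DMSO and 97 and 77 counts with MAPK13-IN-1. Its CPM of 2.79 and 1.88 in DMSO enclosed those of 2.73 and 2.27 with the inhibitor. No difference was detectable at this depth, with a log2 fold change of 0.11 ± 0.26 (SE, adjusted p = 0.734, edgeR) that took either sign when single libraries were left out, from −0.17 without DMSO replicate 3 and −0.03 without MAPK13-IN-1 replicate 2 to 0.22 without MAPK13-IN-1 replicate 3 and 0.40 without DMSO replicate 2. Values in the replicate 1 pair were 1.85 FPKM in DMSO and 0.871 FPKM with the inhibitor.

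Compared per length, the kinases kept a steep order. In DMSO, *Mapk14* was at 25.7 ± 1.31 RPKM, *Mapk11* at 8.55 ± 0.159, *Mapk13* at 0.918 ± 0.0769 and *Mapk12* at 0.613 ± 0.170 RPKM (SD, n = 2). With MAPK13-IN-1, *Mapk14* was at 34.7 ± 0.416 RPKM, *Mapk11* at 3.46 ± 0.424, *Mapk12* at 0.658 ± 0.0856 and *Mapk13* at 0.333 ± 0.205 RPKM. *Mapk12* and *Mapk13* exchanged places at the bottom of the order, where both rest on fewer than 100 counts per library.

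The composition of p38 kinase mRNA differed more between the groups than its sum. Summed over the 4 genes, p38 kinase mRNA was 36.7 and 34.8 RPKM in DMSO and 39.0 and 39.2 RPKM with MAPK13-IN-1, with both inhibitor libraries above both DMSO libraries. The share of *Mapk14* in this sum was 72.4% and 71.2% in the DMSO libraries and 89.6% and 87.7% in the MAPK13-IN-1 libraries. The share of *Mapk11* was 23.0% and 24.9% in DMSO and 8.10% and 9.59% with the inhibitor. *Mapk13* made up 2.65% and 2.49% in DMSO and 0.481% and 1.22% with the inhibitor. The shares of these 3 genes did not overlap between the groups (exact two-sided permutation p = 0.333, the smallest that 2 libraries against 2 can give), whereas the share of *Mapk12* was 1.71 ± 0.410% and 1.68 ± 0.224% (SD, n = 2) and overlapped.

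For the replicate 1 pair the sum was 39.3 FPKM in DMSO and 33.4 FPKM with the inhibitor. *Mapk14* took 63.1% and 59.1% of it, *Mapk11* 31.8% and 28.5%, and *Mapk12* 4.70% and 2.61%. *Mapk13* took 0.486% in DMSO and 9.81% with the inhibitor, and the shares of the other 3 genes were each lower with the inhibitor.

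**Figure D2:**
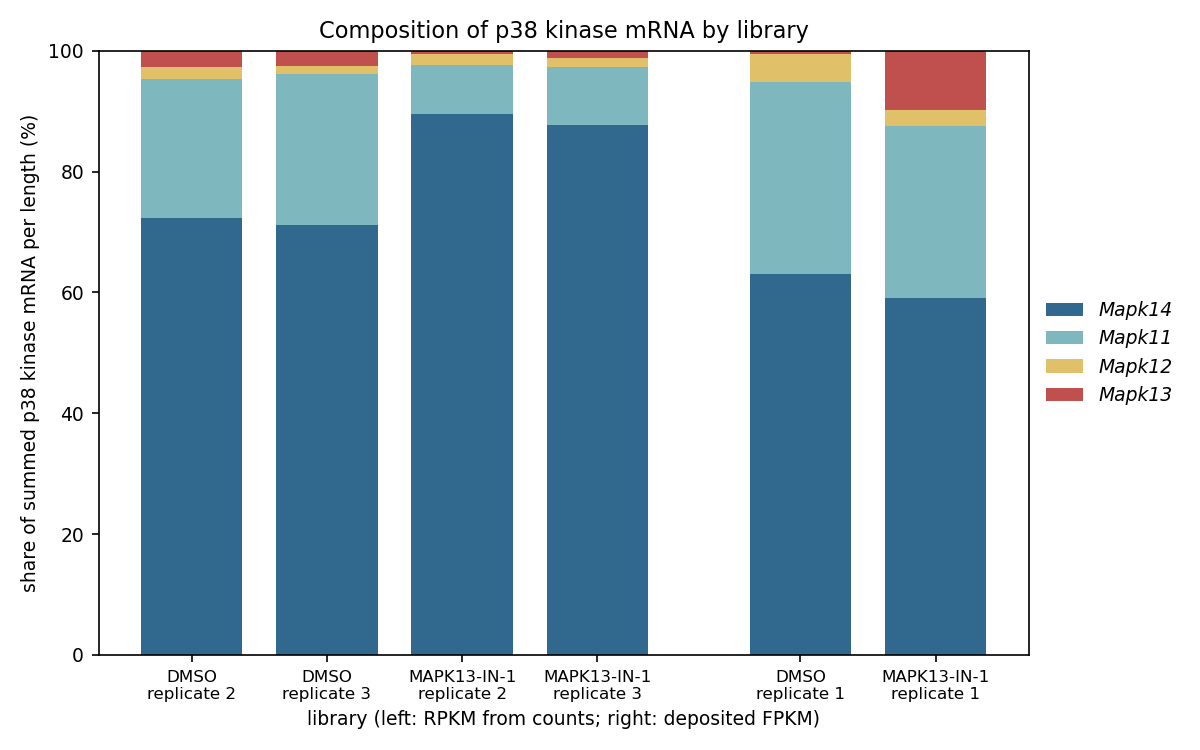
Share of each p38 kinase gene (vertical axis, percent) in their summed mRNA per length, with 1 bar per library, RPKM on the left and deposited FPKM on the right. *Mapk14* takes 71.2% to 72.4% in the DMSO and 87.7% to 89.6% in the MAPK13-IN-1 count libraries, and *Mapk13* takes 9.81% in the MAPK13-IN-1 library of the replicate 1 pair.

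The 4 kinase genes lie in 2 tandem pairs, each pair on 1 strand (GRCm38, GENCODE vM21 annotation). *Mapk11* (chr15:89142486-89149628) and *Mapk12* (chr15:89130584-89140703) lie on the minus strand with 1782 bp between them. *Mapk14* (chr17:28691329-28748406) and *Mapk13* (chr17:28769297-28780233) lie on the plus strand with 20890 bp between them. Neighbours did not move alike, since *Mapk13* fell beside a *Mapk14* that rose, and *Mapk11* fell beside a *Mapk12* with no detectable difference. Within a library, where scaling cancels, the log2 count ratio of *Mapk13* to *Mapk14* was −5.25 and −5.31 in DMSO and −8.01 and −6.64 with MAPK13-IN-1. That of *Mapk12* to *Mapk11* was −3.12 and −3.74 in DMSO and −1.74 and −2.26 with the inhibitor. In these 4 libraries neither ratio overlapped between the groups, as CPM did not for 83.0% of all genes tested. The share over other gene pairs was not computed. The differences between group means were −2.05 and 1.43. The first was −1.36 without MAPK13-IN-1 replicate 2 and −2.73 without MAPK13-IN-1 replicate 3. Both had the opposite sign in the replicate 1 pair, at 4.43 for *Mapk13* to *Mapk14* and −0.69 for *Mapk12* to *Mapk11*.

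The genes whose CPM ran closest to each kinase over the 4 count libraries, by Euclidean distance of centred log2 CPM, were *Hip1r*, *Fech* and *Ccnl2* for *Mapk14*. For *Mapk11* they were *Gm10865*, *Crlf2* and *Il2ra*, for *Mapk13* *Srcin1*, *Gm30139* and *Gm52806*, and for *Mapk12* *Arhgap20*, *LOC115487393* and *Gm43247*. Over 4 libraries such closeness mostly reflects a similar fold change, as in *Il2ra*, at a log2 fold change of −1.27.

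Both upstream kinases rose in the count libraries, and *Map2k6* had the largest fold change of the 10 genes there. *Map2k6*, which encodes MKK6, had 607 and 632 counts in DMSO and 3859 and 3361 counts with MAPK13-IN-1. These were 23.5 and 23.2 CPM against 109 and 99.2 CPM, with the DMSO libraries close together and both inhibitor libraries high. *Map2k6* rose 4.44-fold, a log2 fold change of 2.15 ± 0.08 (SE, adjusted p = 1.87e-08, edgeR), and lay between 2.08 and 2.28 under 11 alternative settings. It was low in both libraries of the replicate 1 pair and lower with the inhibitor, at 1.25 against 2.90 FPKM, a log2 ratio of −0.79. The direction thus differed between the library batches, a difference that was not tested.

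*Map2k3*, which encodes MKK3, had 2675 and 2791 counts in DMSO and 5889 and 5349 counts with MAPK13-IN-1, or 104 and 103 CPM against 166 and 158 CPM. Both inhibitor libraries were high, and the log2 fold change was 0.65 ± 0.06 (SE, adjusted p = 5.77e-06, edgeR). Its direction was the same in the replicate 1 pair, with 41.0 FPKM in DMSO and 59.2 FPKM with the inhibitor, a log2 ratio of 0.52. Per length, the 2 MAP2K genes summed to 37.9 ± 0.299 RPKM in DMSO and 79.0 ± 3.68 RPKM with MAPK13-IN-1 (SD, n = 2). *Map2k3* made up 82.1% of that sum in both DMSO libraries and 61.3% and 62.3% in the inhibitor libraries, against 93.4% and 97.9% in the DMSO and inhibitor libraries of the replicate 1 pair. *Map2k6* (chr11:110399122-110525522) and *Map2k3* (chr11:60932033-60952811) share a chromosome and are not neighbours.

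Both downstream kinases fell in the count libraries. *Mapkapk2*, which encodes MK2, the most abundant of the 10 genes by CPM and per length, had 11149 and 12022 counts in DMSO and 7004 and 7190 counts with MAPK13-IN-1. The CPM were 432 and 442 against 197 and 212, so that both inhibitor libraries lay far below. *Mapkapk2* fell 2.14-fold, a log2 fold change of −1.09 ± 0.06 (SE, adjusted p = 1.6e-07, edgeR). More was present with the inhibitor in the replicate 1 pair, 150 against 103 FPKM, a log2 ratio of 0.54.

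*Mapkapk3*, which encodes the related MK3, had 4852 and 5495 counts in DMSO and 5184 and 4890 counts with MAPK13-IN-1. Its raw counts overlapped, and its CPM of 188 and 202 in DMSO and 146 and 144 with the inhibitor did not, the inhibitor libraries having the larger totals. The log2 fold change was −0.43 ± 0.06 (SE, adjusted p = 0.000115, edgeR), and −0.30 with scaling by library totals alone. As for *Mapkapk2*, the replicate 1 pair had more with the inhibitor, 92.6 against 66.5 FPKM, a log2 ratio of 0.47.

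Per length, MK2 and MK3 mRNA together was 179 ± 4.03 RPKM in DMSO and 93.5 ± 3.23 RPKM with MAPK13-IN-1 (SD, n = 2). Their sum in the replicate 1 pair was 170 FPKM in DMSO and 243 FPKM with the inhibitor. *Mapkapk2* held 80.7% and 79.9% of the sum in the DMSO count libraries, 71.1% and 72.8% in the inhibitor count libraries, and 60.9% and 61.9% in the DMSO and inhibitor libraries of the replicate 1 pair.

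The phosphatases went in opposite directions in the count libraries. *Dusp1*, an immediate early gene whose product dephosphorylates p38 and JNK in the nucleus, had 769 and 790 counts in DMSO and 718 and 743 counts with MAPK13-IN-1. Scaled, both inhibitor libraries were low, at 20.2 and 21.9 CPM against 29.8 and 29.0 CPM. The log2 fold change was −0.48 ± 0.09 (SE, adjusted p = 0.00101, edgeR). Its direction in the replicate 1 pair was the opposite, with 9.85 FPKM in DMSO and 22.8 FPKM with the inhibitor, a log2 ratio of 1.13.

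*Dusp10*, whose product prefers p38 and JNK over ERK, had 529 and 519 counts in DMSO and 939 and 828 counts with MAPK13-IN-1, or 20.5 and 19.1 CPM against 26.5 and 24.4 CPM. Both inhibitor libraries were higher, and the log2 fold change was 0.36 ± 0.10 (SE, adjusted p = 0.00793, edgeR). This call was lost without DMSO replicate 3, at 0.30 with an adjusted p of 0.100, against adjusted p-values from 0.000162 to 0.100 over all 11 alternative settings. The direction was kept in the replicate 1 pair, with 4.68 FPKM in DMSO and 7.18 FPKM with the inhibitor. Per length the 2 phosphatases summed to 15.4 ± 0.498 RPKM in DMSO and 14.7 ± 0.107 RPKM with MAPK13-IN-1 (SD, n = 2), while the share of *Dusp1* went from 57.2% and 58.3% to 41.3% and 45.2%. Their sum was 14.5 FPKM in DMSO and 30.0 FPKM with the inhibitor in the replicate 1 pair. The share of *Dusp1* went the other way there, from 67.8% to 76.1%. An exon of *Dusp1* overlaps one of *Ergic1* by 11 bp on the opposite strand, and no exon of the other 9 genes overlaps that of another annotated gene.

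**Figure D3:**
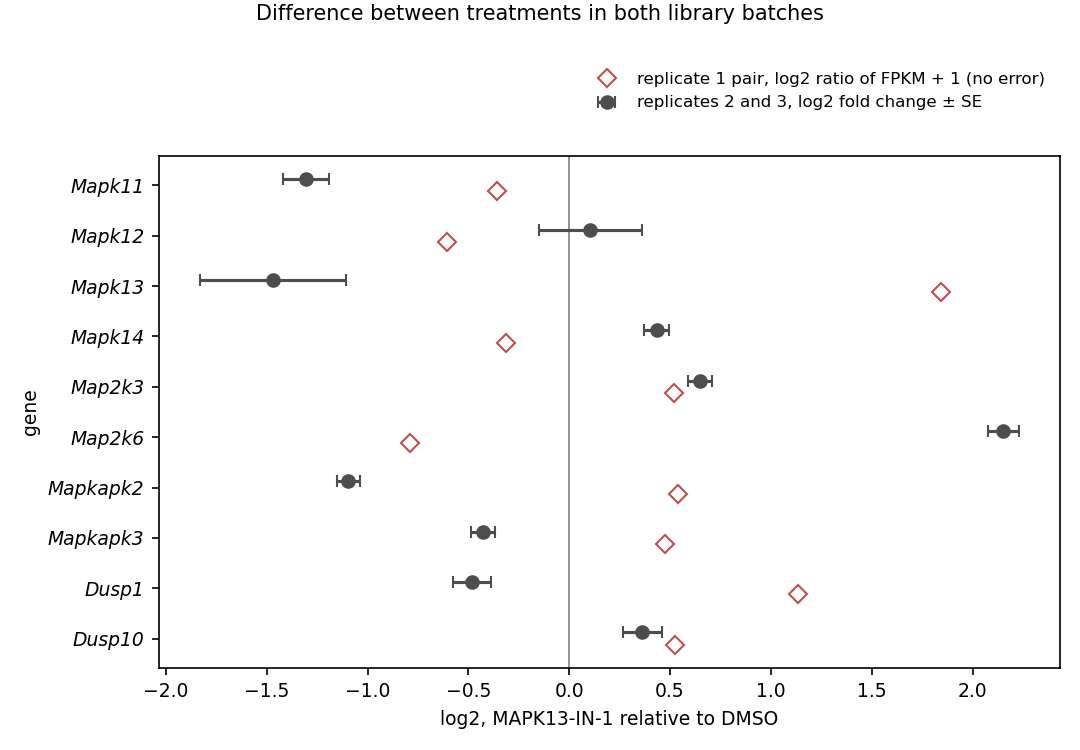
Difference between MAPK13-IN-1 and DMSO (horizontal axis, log2) for the 10 genes (vertical axis). Filled circles are edgeR log2 fold changes of replicates 2 and 3 with SE, and open diamonds are log2 ratios of FPKM + 1 in the replicate 1 pair, which have no error. Circle and diamond lie on the same side of 0 for *Mapk11*, *Map2k3* and *Dusp10*.

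Promoter sequences were examined for the adjacent genes *Mapk13* and *Mapk14*, which moved in opposite directions, for *Map2k6*, which had the largest rise, and for the early gene *Dusp1*. The RefSeq promoter table (GRCm38.p6) held all 10 genes with 14 start sites, and the 250 bases before each start were searched on both strands for a cAMP response element (TGACGTCA), an AP-1 site (TGANTCA), the TATA box (TATAAA), the GC box (GGGCGG) and the Tcf/Lef core (CTTTGA). Of the 32851 promoters in the table, 1.55% held the first, 6.75% the AP-1 site, 12.4% the TATA box, 32.7% the GC box and 13.8% the Tcf/Lef core. Among the 14 start sites, the GC box occurred at 8, the cAMP response element, the AP-1 site and the TATA box at 1 each, and the Tcf/Lef core at 0. There were 4 GC boxes before *Mapk13* and 1 before the first of the 2 *Mapk14* starts. *Map2k6* had its AP-1 letters 232 bases before the first of 3 starts, as TGATTCA, with T at the free position N. *Dusp1* had the cAMP response element 143 bases before its start, touching a GC box on its 3′ side. These letters describe the windows and were not tested for binding. For each of these 4 genes 1 window is printed, that of the first start for *Mapk14* and *Map2k6*. Among the windows left out, the second *Map2k6* start had a GC box and the third the TATA box. Letters run 5′ to 3′ on the strand of the gene, with matches in capitals.
*Mapk13*, chr17:28769067-28769316, plus strand: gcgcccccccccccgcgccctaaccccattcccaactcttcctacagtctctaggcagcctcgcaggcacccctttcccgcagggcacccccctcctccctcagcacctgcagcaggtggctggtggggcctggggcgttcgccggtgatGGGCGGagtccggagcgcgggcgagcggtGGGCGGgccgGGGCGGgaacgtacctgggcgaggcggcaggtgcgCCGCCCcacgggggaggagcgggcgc
*Mapk14*, chr17:28691092-28691341, plus strand: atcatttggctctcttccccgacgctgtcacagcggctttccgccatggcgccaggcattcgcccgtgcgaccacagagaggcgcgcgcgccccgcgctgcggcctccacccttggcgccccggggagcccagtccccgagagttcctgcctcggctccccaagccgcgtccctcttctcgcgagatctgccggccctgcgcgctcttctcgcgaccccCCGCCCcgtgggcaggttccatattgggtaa
*Map2k6*, chr11:110398852-110399101, plus strand: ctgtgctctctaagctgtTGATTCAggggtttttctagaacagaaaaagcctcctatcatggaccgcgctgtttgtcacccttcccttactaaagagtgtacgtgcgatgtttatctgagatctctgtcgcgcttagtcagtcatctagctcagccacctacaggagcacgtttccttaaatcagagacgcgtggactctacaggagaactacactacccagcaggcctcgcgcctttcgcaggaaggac
*Dusp1*, chr17:26508473-26508722, minus strand: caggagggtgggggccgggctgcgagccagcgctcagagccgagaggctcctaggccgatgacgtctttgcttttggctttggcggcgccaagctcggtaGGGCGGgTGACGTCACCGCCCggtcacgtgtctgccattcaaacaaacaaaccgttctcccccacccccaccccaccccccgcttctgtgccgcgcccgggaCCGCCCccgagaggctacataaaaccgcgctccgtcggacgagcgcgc

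The wider pathway was read from gene lists, each set beside all genes tested, of which 31.5% rose and 32.3% fell with a median log2 fold change of 0.01. With scaling by library totals, 6176 of all genes tested rose and 4302 fell, in place of 5122 and 5252, and list counts under that scaling are to be read against these. For every list, the count of called genes with the direction of the call in the replicate 1 pair is to be read against 65.9% of all called genes. Of 21 further genes upstream of p38, *Map2k4* of the MAP2K tier among them, 11 rose, 5 fell and 5 did not pass, with a median log2 fold change of 0.34. With scaling by library totals 12 rose and 4 fell. The Gadd45 proteins, small stress-induced activators of the kinase MEKK4, split. *Gadd45b* had 1947 and 2063 counts in DMSO and 8711 and 7265 counts with MAPK13-IN-1, a log2 fold change of 1.60 ± 0.07 (SE, adjusted p = 7.69e-08, edgeR). *Gadd45g* rose with a log2 fold change of 1.07, from 45.8 ± 1.08 to 96.0 ± 1.74 CPM (SD, n = 2). *Gadd45a* fell with a log2 fold change of −1.14, from 37.8 ± 2.39 to 17.2 ± 1.22 CPM (SD, n = 2).

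Of the 16 called upstream genes, 11 had the direction of the call in the replicate 1 pair and 5 did not, and all 3 Gadd45 genes were among the 11. *Gadd45b* stood at 30.4 FPKM in DMSO and 147 FPKM with the inhibitor, *Gadd45g* at 21.2 and 53.6 FPKM, and *Gadd45a* at 20.3 and 14.0 FPKM. The MAP3K tier went in both directions. *Map3k10* (−0.69) and *Map3k11* (−0.50), named after their values were seen, fell, and both were higher with the inhibitor in the replicate 1 pair, at 5.11 against 4.18 FPKM and 21.5 against 14.6 FPKM. *Map3k2* rose (log2 fold change 0.98), as did *Taok1* (0.78) and *Map3k5*, which encodes the stress-activated ASK1 (0.37, a call lost without DMSO replicate 3, at 0.28). For DMSO and MAPK13-IN-1 in the replicate 1 pair, *Map3k2* stood at 5.32 and 7.03 FPKM, *Taok1* at 8.48 and 9.52 FPKM, and *Map3k5*, in the other direction, at 10.8 and 9.31 FPKM. *Map3k7*, which encodes TAK1, was at −0.15 (adjusted p = 0.0601, edgeR) and passed without MAPK13-IN-1 replicate 2 (−0.15) or without MAPK13-IN-1 replicate 3 (−0.15), but was nearer 0 with upper-quartile scaling (−0.06), library totals (−0.02) and at least 10 counts in every library (−0.10). *Map3k7* went the other way in the replicate 1 pair, at 19.6 FPKM in DMSO and 31.5 FPKM with the inhibitor. *Tab1*, whose product binds TAK1 and can make p38α phosphorylate itself, fell (−0.51) and was also lower with the inhibitor in the replicate 1 pair, at 3.80 against 6.36 FPKM. *Map2k4*, the JNK activator that can also act on p38, was at −0.07 (adjusted p = 0.359, edgeR) and at 0.05 with scaling by library totals alone. Its value also depended on single libraries, with −0.05 without DMSO replicate 2, −0.12 without DMSO replicate 3 and −0.04 without MAPK13-IN-1 replicate 2.

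Of 5 further kinases activated by p38, 0 rose and 1 fell, with a median log2 fold change of 0.02. The gene that fell was *Mapkapk5*, which encodes MK5, at −0.21 (adjusted p = 0.0377, edgeR), a call lost under 6 of 11 alternatives. These were scaling by library totals (−0.09) or upper quartile (−0.13), at least 10 counts in every library (−0.17), DESeq2 (−0.21), and the fits without DMSO replicate 2 (−0.27) and without DMSO replicate 3 (−0.18). *Mknk1* (0.09), *Mknk2* (0.08), *Rps6ka4* (−0.01) and *Rps6ka5* (0.02) did not pass, and *Mknk2* passed without MAPK13-IN-1 replicate 2 (0.15) but was at 0.0019 without MAPK13-IN-1 replicate 3. *Mknk1* and *Mknk2* passed as higher with upper-quartile scaling (0.17 and 0.16) and with scaling by library totals (0.21 and 0.21), where 2 of the 5 rose and 0 fell. The range of this list, from −0.21 to 0.09, was narrow beside the log2 fold change of *Mapkapk2*, at −1.09, in the count libraries only. In the replicate 1 pair *Mapkapk5* went the other way, from 19.6 to 25.6 FPKM, and *Mknk2* went from 84.0 to 157 FPKM, a log2 ratio of 0.90 against 0.54 for *Mapkapk2*.

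Of 18 substrates of p38 or MK2, 8 rose, 4 fell and 6 did not pass, with a median log2 fold change of 0.13, and with scaling by library totals 10 rose and 3 fell. *Zfp36*, which encodes tristetraprolin, an RNA-binding protein inactivated by MK2, had 736 and 798 counts in DMSO and 2126 and 1992 counts with MAPK13-IN-1. It rose with a log2 fold change of 1.04 ± 0.08 (SE, adjusted p = 1.25e-06, edgeR), and stood at 11.1 and 22.8 FPKM in the replicate 1 pair, the same direction. *Lsp1*, an actin-binding MK2 substrate of leukocytes, rose from 219 ± 4.88 to 524 ± 30.9 CPM (SD, n = 2) and stood at 41.2 and 122 FPKM in the replicate 1 pair. *Ddit3*, which encodes the stress factor CHOP, fell from 148 ± 8.84 to 42.0 ± 1.95 CPM (SD, n = 2) and stood at 117 and 47.0 FPKM in the replicate 1 pair. Of the 12 called substrates, 7 had the direction of the call in the replicate 1 pair, these 3 among them, and 5 had the other, where 65.9% of all called genes had the direction of the call. Among the 5, *Creb1* rose in the count libraries (log2 fold change 0.77) and was at 12.2 and 11.0 FPKM in the replicate 1 pair.

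Of 9 other phosphatases of p38 that were tested among 10 listed, 2 rose, 3 fell and 4 did not pass, with a median log2 fold change of −0.13, and *Ptprr*, named after its values were seen, had too few counts to be tested. *Ptpn5*, which encodes the tyrosine phosphatase STEP, had 719 and 720 counts in DMSO and 55 and 56 counts with MAPK13-IN-1. It fell 16.9-fold, a log2 fold change of −4.08 ± 0.14 (SE, adjusted p = 1.46e-08, edgeR), the lowest value of this list. It was also lower with the inhibitor in the replicate 1 pair, at 4.60 FPKM against 13.8 FPKM in DMSO.

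*Ptpn7*, which encodes the haematopoietic tyrosine phosphatase that binds ERK and p38, fell from 177 ± 10.7 to 79.1 ± 9.01 CPM (SD, n = 2). *Dusp8* was rare and rose, from 46 and 59 counts to 288 and 297 counts, and *Dusp16* rose from 24.7 ± 1.69 to 41.7 ± 2.44 CPM (SD, n = 2). *Ppm1d*, a p38 phosphatase induced by p53, was at −0.12 (adjusted p = 0.323, edgeR), with 0.02 without MAPK13-IN-1 replicate 2 and −0.28 without MAPK13-IN-1 replicate 3, where it passed. The 5 called genes of this list had the sign of the call in the replicate 1 pair, against 65.9% of all called genes, but 1 of the 5, *Dusp2*, was nearly level there, at 55.7 FPKM in DMSO and 55.4 FPKM with the inhibitor (log2 ratio −0.01). Of 3 scaffolds, 1 rose and 2 did not pass, with a median log2 fold change of 0.63. *Spag9*, which encodes JIP4, rose (0.79), *Mapk8ip2* did not pass at 13 counts in DMSO replicate 2 (0.63, and 0.33 without MAPK13-IN-1 replicate 2), and *Ccm2* did not pass (0.16, and 0.09 without DMSO replicate 2). *Ccm2* did pass under 6 of 11 alternatives, which were RLE (0.17), upper-quartile (0.24) and library-total scaling (0.28), at least 10 counts in every library (0.20), the replicate block (0.16) and the fit without MAPK13-IN-1 replicate 2 (0.20). With library totals and with at least 10 counts in every library, 2 of the 3 scaffolds rose.

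Of the 8 cytokine and inflammatory mRNAs called, 7 went the other way in the replicate 1 pair, a difference between the library batches that was not tested. Of all 10 listed, known as targets of the MK2 and tristetraprolin axis, 0 rose, 8 fell and 2 did not pass in the count libraries, with a median log2 fold change of −1.41. By contrast, 9 of the 10 were higher with the inhibitor and 1 was lower in the replicate 1 pair, where 56.5% of the genes with at least 1 FPKM were higher. *Il2*, the growth factor of activated T cells, had 1194 and 1544 counts in DMSO and 421 and 606 counts with MAPK13-IN-1, a log2 fold change of −1.80 ± 0.17 (SE, adjusted p = 6.18e-06, edgeR), while the replicate 1 pair had 6.04 FPKM in DMSO and 71.1 FPKM with the inhibitor.

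*Il3* fell from 98 and 93 counts to 24 and 28 counts and stood at 0.289 and 8.38 FPKM in the replicate 1 pair. *Csf2* fell from 12.3 ± 0.872 to 7.06 ± 0.904 CPM (SD, n = 2) and stood at 3.96 and 27.5 FPKM. *Il6*, the 1 gene of the list lower in both batches, fell from 115 and 155 counts to 18 and 21 counts and stood at 6.39 and 3.79 FPKM. *Tnf* did not pass, with 27.1 and 26.5 CPM in DMSO and 22.1 and 24.7 CPM with the inhibitor (adjusted p = 0.0939, edgeR). Its log2 fold change of −0.20 was −0.12 without MAPK13-IN-1 replicate 2 and −0.29 without MAPK13-IN-1 replicate 3. Over all 11 alternatives it came as near to 0 as −0.07. *Tnf* stood at 9.44 and 21.0 FPKM in the replicate 1 pair. In the same count libraries the CD4+ T cell marker sum was lower with the inhibitor, at 319 and 354 against 538 and 547 RPKM, and the macrophage sum was higher, as was the B cell sum, mostly through *Cd74*, in cells taken through the CD4 T cell isolation kit. The part of these differences in the cytokine values was not tested.

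Of 13 immediate early genes, 3 rose, 9 fell (7 with scaling by library totals) and 1 did not pass, with a median log2 fold change of −0.57. By contrast, 11 of the 13 were higher with the inhibitor in the replicate 1 pair, against 56.5% of the genes with at least 1 FPKM. *Egr1* had 8792 and 9039 counts in DMSO and 1769 and 1597 counts with MAPK13-IN-1, a log2 fold change of −2.80, and *Egr3* fell with a log2 fold change of −2.31. *Ier3* rose from 473 and 447 counts to 3183 and 3096 counts, a log2 fold change of 2.38. Early genes thus went in both directions in the count libraries, where *Dusp1* fell less than *Egr1* or *Egr3* on the log2 scale. In the replicate 1 pair 5 of the 12 called early genes had the direction of the call and 7 had the other. *Egr1* was lower there too, at 56.1 FPKM in DMSO and 37.3 FPKM with the inhibitor, and *Ier3* was higher (5.06 and 15.1 FPKM), while *Egr3* (9.63 and 12.2 FPKM) went the other way, as *Dusp1* did (9.85 and 22.8 FPKM).

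**Figure D4:**
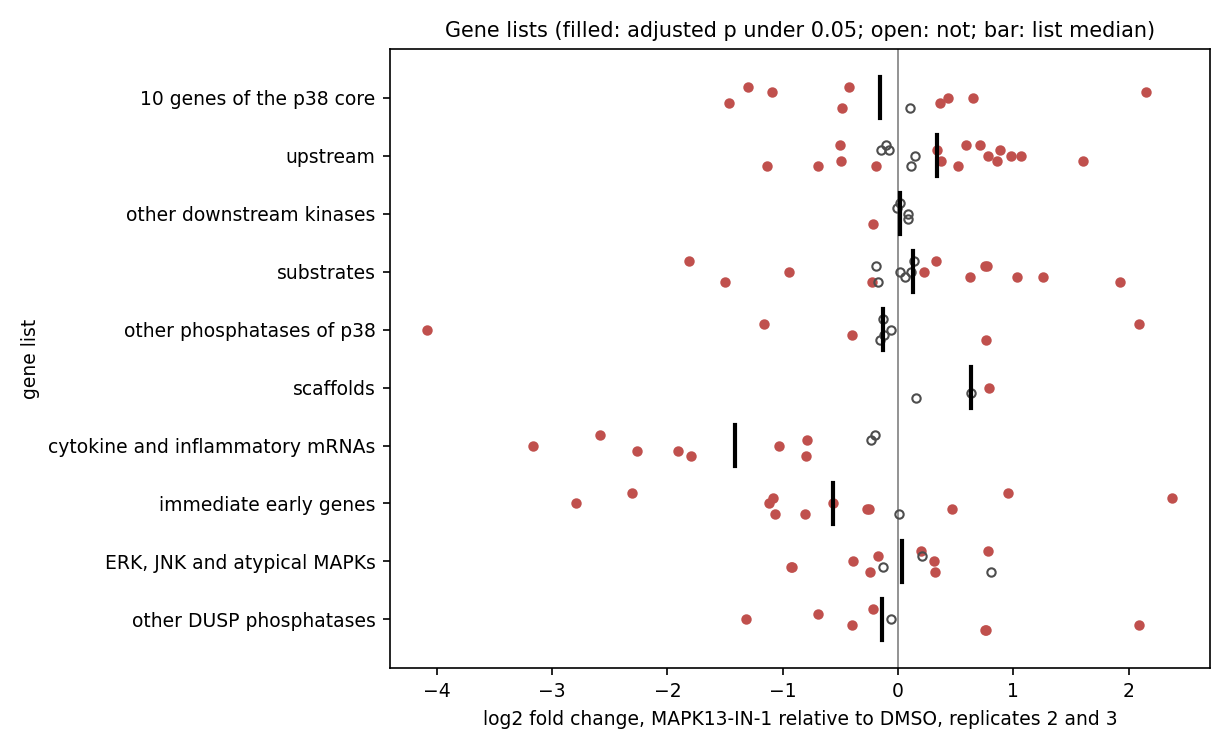
edgeR log2 fold change of MAPK13-IN-1 relative to DMSO in replicates 2 and 3 (horizontal axis) for each tested gene of 10 lists (vertical axis). Filled points have an adjusted p under 0.05, open points do not, and bars are list medians, which run from −1.41 for the cytokine and inflammatory mRNAs to 0.63 for the 3 scaffolds.

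For comparison, 14 genes of the ERK, JNK and atypical MAP kinases and their MAP2Ks were set beside the p38 genes. Of 12 tested, 4 rose, 5 fell and 3 did not pass, with a median log2 fold change of 0.03 and a range from −0.93 to 0.80. *Mapk8*, which encodes JNK1, rose (0.78), as did *Map2k1* (0.32), and *Nlk* (−0.93) and *Map2k2* (−0.92) fell. With scaling by library totals 5 rose and 3 fell. In the replicate 1 pair 5 of the 9 called genes had the direction of the call and 4 had the other. *Map2k1* was higher there too, at 29.9 FPKM in DMSO and 52.2 FPKM with the inhibitor, *Mapk8* was nearly level (4.30 and 4.41 FPKM), and *Nlk* (6.35 and 10.4 FPKM) and *Map2k2* (38.9 and 42.6 FPKM) went the other way. The p38 genes spanned more, from −1.47 to 2.15, and whether the lists differ was not tested. Of 8 DUSP phosphatases other than *Dusp1* and *Dusp10*, of which 4 were already counted among the p38 phosphatases, *Dusp8* and *Dusp16* included, 3 rose, 4 fell (3 with scaling by library totals) and 1 did not pass, with a median log2 fold change of −0.14. *Dusp7* rose (0.76) and *Dusp5* fell (−0.69), and both went the other way in the replicate 1 pair, *Dusp7* from 4.96 to 3.94 FPKM and *Dusp5* from 25.0 to 56.5 FPKM. Of the 7 called genes of this list, 4 had the direction of the call in the pair, the nearly level *Dusp2* and *Dusp6* (24.4 and 23.9 FPKM) among them, and 3 had the other, so reversal in the pair was not confined to the p38 genes.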

How the data were processed

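RNA-seq values of 6 libraries were used. For replicates 2 and 3 the authors deposited raw counts per gene symbol (fastp 0.21.0, HISAT2 2.1.0, StringTie 2.1.5 and DESeq2 1.30.1 are named, with mm10), and all sample columns were used (0 unused). Values of the replicate 1 pair were deposited by the authors normalized for gene length and library size, with the unit inferred to be FPKM (FastQC and HISAT2 are named, with GRCm38/mm10). Counts were fitted in R 4.3.3 with edgeR 4.0.16: filterByExpr (minimum count 10, minimum total 15), TMM factors of 0.960 and 0.955 for DMSO and 1.05 and 1.04 for MAPK13-IN-1, a quasi-likelihood test of 2 libraries against 2, and Benjamini-Hochberg adjustment over 16269 genes. Depth gives a floor of 3 counts at 0.0886 to 0.112 CPM before TMM scaling, which covers counting error only. RPKM used merged exon lengths of GENCODE vM21. The FPKM pair took a pseudocount of 1 and no test. The genes and lists were chosen with earlier results of these data known. Named genes were the 10 pathway genes, up to 4 from each further list by smallest p, 16 genes named whatever their values, and the 3 genes nearest to each p38 kinase. *Dusp2*, *Dusp6*, *Klra8* and *S100a9* were also named, after their values were seen. The alternatives were RLE, upper-quartile and library-total scaling, other count filters, a replicate block, DESeq2 1.42.0, other thresholds, a pseudocount of 0.1, median centring of the pair, raw-count shares and each library left out in turn. Other tools were Python 3.11.15, pandas 2.3.3, SciPy 1.17.1 and matplotlib 3.10.9.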

Additional observations from a re-analysis of the deposited data

Results flagged for a closer look

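For 6 of the 9 called genes of the p38 pathway, the replicate 1 pair went in the direction opposite to both inhibitor libraries of replicates 2 and 3. Of all called genes, 65.9% went in the direction of the call in the pair. *Mapk13* fell in replicates 2 and 3 (log2 fold change −1.47) and had a log2 ratio of 1.84 in the pair. *Mapk14* rose (0.43) and had a log2 ratio of −0.31 in the pair. *Map2k6* rose (2.15) and had a log2 ratio of −0.79. *Mapkapk2* fell (−1.09) and had a log2 ratio of 0.54, and *Mapkapk3* fell (−0.43) and had a log2 ratio of 0.47. *Dusp1* fell (−0.48) and had a log2 ratio of 1.13. The difference between the library batches was not tested, because the pair has 1 library per group and another unit. Library preparation and marker levels differ between the batches and cannot be told apart, and the labels give the time of addition for replicates 2 and 3 alone.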

How the results depend on the processing

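Of 110 values of the 10 genes under 11 alternatives, 107 kept their direction and their side of the threshold. *Mapk12*, not called, ran from −0.17 to 0.40 with single libraries left out and changed sign without DMSO replicate 3 (−0.17) and without MAPK13-IN-1 replicate 2 (−0.03). *Dusp10* ran from 0.30 to 0.41 with single libraries left out, and from 0.30 to 0.49 over all 11 alternatives, and lost its call without DMSO replicate 3. With an absolute log2 fold change over 1 added to the threshold, 3799 genes passed, 2113 higher and 1686 lower. On raw counts without length scaling the share of *Mapk11* moved by −11.3 and that of *Mapk14* by 12.8 percentage points. The difference in the share of *Mapk12* ran from −0.32 to 0.26 percentage points with single libraries left out, at 0.26 without DMSO replicate 2 and 0.13 without MAPK13-IN-1 replicate 3. Scaling by library totals shifted the median log2 fold change of all genes by 0.125, and under it *Map2k4* (0.051), *Rps6ka4* (0.11) and *Ppm1d* (0.0048), none of them called, changed sign. *Map2k4* also did so with upper-quartile scaling (0.0067), and *Rps6ka4* with RLE (0.0033), upper-quartile scaling (0.070) and at least 10 counts in every library (0.034). With single libraries left out *Rps6ka4* ran from −0.11 to 0.081, *Rps6ka5* from −0.13 to 0.16 and *Ppm1d* from −0.28 to 0.018. With the replicate number as a block 10645 genes were called, 5261 higher and 5384 lower, against 10374 without the block, and among the 10 genes 0 calls changed. The cause of these changes was not tested. With 1 library left out, an arm with a single library is assumed to vary like the other.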
